A study of Mus musculus with 4 samples.

Results

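The subject is a set of 42 genes, namely 41 neuronal genes and regulators together with *Rest* itself, in mouse embryonic fibroblasts (MEFs) without *Mbd4*. The 42 are synaptic, secretory, cytoskeletal and neural splicing genes, many of which the transcription factor REST represses outside neurons. They were chosen by name with their KO and WT counts in these libraries already known, so every difference between genotypes given for them is a description. Of the 42, 39 have a row among the 23537 genes of the count table, and *Celf3*, *Nlgn1* and *Map2* were not analysed here. The low-count filter of edgeR was passed by 22 of the 39, which are called tested below, out of 15538 tested genes in all. A gene that passed the filter only through the genotype where it is high had to differ, and this holds for several of the 22.

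RNA depleted of ribosomal RNA was sequenced from subconfluent primary MEFs, connective tissue cells grown from C57BL/6 embryos taken at day 12.5 postcoitum. There were 2 *Mbd4*-/- libraries (KO) and 2 *Mbd4*+/+ libraries (WT). *Mbd4* encodes a DNA glycosylase that binds methylated DNA and removes thymine or uracil mispaired with guanine. The comparison asks how expression differs when this protein is lost.

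REST, a zinc finger protein, binds a composite DNA element beside neuronal genes and recruits corepressors, among them RCOR1 (CoREST) with the histone demethylase KDM1A and histone deacetylases, and SIN3 proteins. In fibroblasts and other cells outside the nervous system this keeps many synaptic and secretory genes silent. The neural splicing factor SRRM4 is itself a REST target, and in neurons it promotes a splice form of *Rest* that encodes a truncated protein. Counts per gene do not separate splice forms.

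The libraries held 45223089 and 39108275 counts in KO and 47567835 and 42796997 in WT. Replicates correlated at 0.996 in KO and 0.994 in WT (Pearson r of log2 CPM across genes, which are not independent replicates), against 0.923 to 0.924 between genotypes. At an adjusted p of 0.05, 34.3% of all tested genes were higher and 32.5% lower in KO. Under stricter limits (adjusted p of 0.01, log2 fold change of at least 2 in size) these shares were 5.79% and 3.15%. *Mbd4* was lower without being absent, with 373 and 302 counts in KO and 663 and 630 in WT. The labels and methods do not say which part of the gene was removed, so these reads do not test the labels. The methods describe independent samples without naming the embryo or culture behind each, so the p-values reflect only the spread among 4 libraries, which may be technical. Some fibroblast markers were abundant in both genotypes, for example the collagen gene *Col1a2* with 210239 and 200299 counts in KO and 284192 and 226667 in WT. Of 11 fibroblast markers, 8 were lower in KO, beside 32.5% of all tested genes, and 3 did not pass. With libraries scaled by their totals alone 2 were higher, and 1 was with the upper quartile or without WT replicate 1. The proteoglycan gene *Dcn* had 5 and 7 counts in KO against 1349 and 1123 in WT. Another, *Lum*, had 0 and 1 in KO against 142 and 131 in WT. In bulk samples, fewer cells of a type and less RNA per cell cannot be told apart.

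The DNA that REST recognises was looked for around the genes first, as CAGCACC, 2 bases of any kind and GGACAGC on either strand, counting matches among these 14 letters. In the promoter windows of RefSeq (GRCm38.p6, 250 bases before to 50 after a gene's start), 30 of the 42 genes matched by name. A match of at least 12 letters lay in 1 of these 30 (3.33%), the synaptic vesicle gene *Syn1*, against 244 of 27025 genes of that table (0.903%). The left 7 letters alone were in 16.7% of the 30 and 8.14% of all genes, and the right 7 alone in 10% and 7.59%. CpG-rich promoters, with an observed over expected ratio of at least 0.6 in any listed window, were found for 80.0% of the 30 and 38.4% of all genes.

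Wider windows were then searched in mm9, the genome build of the files. This extension was chosen after the data were seen, and 9 combinations of threshold and window were all viewed before any was picked. With the promoter threshold of 12 letters and the narrowest window of 1 kb on either side of the annotated start, 13 of the 39 genes held a match (33.3%), against 1184 of 23393 placed genes (5.06%). Over the 9 combinations, the share of the 39 ran between 10.3% (14 letters within 1 kb) and 53.8% (12 letters within 5 kb). For all genes these 2 settings gave 0.120% and 15.9%. Many of the 42 were picked as genes that REST represses, so holding the element is not independent of the choice. A match is not shown to be bound in these cells.

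Windows of 30 bases around some of the closest matches are printed from mm9, 5′ to 3′ on the strand of the element, as examples from genes that were higher, lower or near 0 counts in KO. They were picked for 13 or 14 matching letters, so their likeness follows from the choice. Capitals mark the matching letters, and the 2 spacer bases and 7 flanking bases on each side are in lower case.
Stmn2: gccatttCAGCACCacGGACAGCgcttctg
Celf5: cgcgcttCAGCACCgcGGACAGCggcacca
L1cam: aggcctcCAGCACCacGGACAGCagaccgt
Srrm4: cacgtttCAGCACttcGGACAGCgccccag
Tubb3: agtgggtCAGCACCtcGGACAGCaaccccg
Chga: gaggattCAGCACCtcGGACAGCaccaggt
Chgb: gggatttCAGCACCccGGACAGCtcctaga
Snap25: gacctttCAGCACCgcGGACAGCgatccgg
Nefm: gatccggCAGCACCaaGGACAGCgcccagg

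All 14 letters matched in 8 of these windows and 13 in that of *Srrm4*. The *Stmn2* window lay upstream of the gene at chr3:8508225-8508254, plus strand, with the element 1.29 kb before the start. That of *Srrm4* was in a non-coding exon at chr5:117041500-117041529, minus strand, the strand of the gene, with the element 0.312 kb after the start. The windows of *Celf5* (chr10:80940479-80940508), *Tubb3* (chr8:125938351-125938380), *Chga* (chr12:103793443-103793472), *Chgb* (chr2:132607525-132607554) and *Snap25* (chr2:136540069-136540098) were intronic. Also intronic was that of *L1cam* (chrX:71114842-71114871), 26.6 kb after the start. *Nefm* held its match upstream, at chr14:68743776-68743805.

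**Figure D1:**
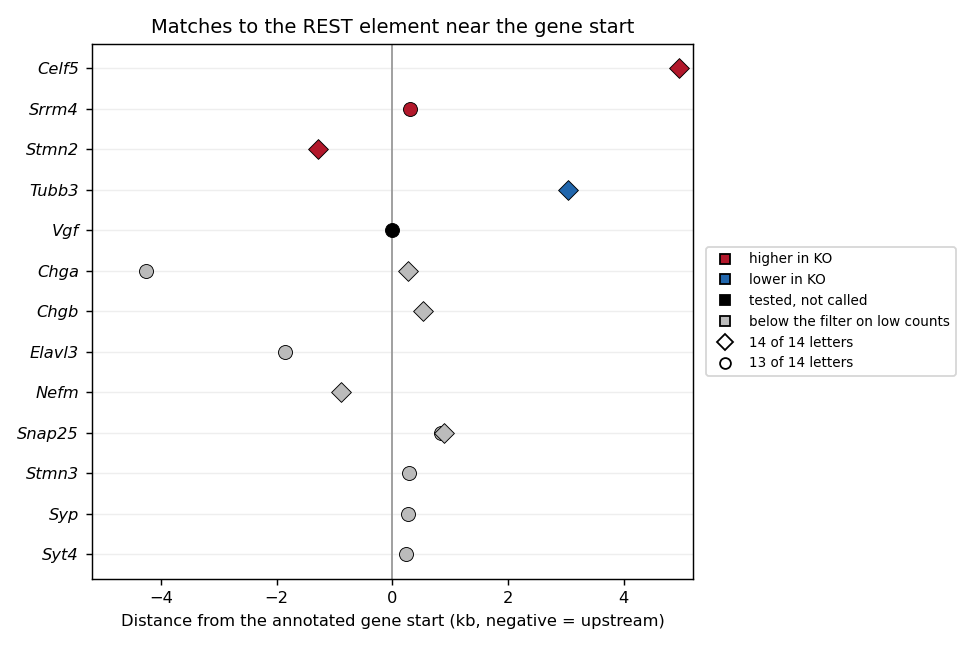
Position of each match of 13 or 14 letters (horizontal axis, kb from the annotated gene start in mm9, negative upstream) for the 13 genes that held one within 5 kb. Red and blue mark genes higher and lower in KO, black a tested gene that did not pass the threshold, and grey the 8 genes below the filter on low counts.

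Genes with the element were found among those higher, lower and near 0 counts. Of the 13 genes with at least 12 letters within 1 kb, 6 were tested. Of these, 3 were higher and 1 lower in KO, beside 34.3% and 32.5% of all tested genes. Of the 13 with at least 13 letters within 5 kb, 5 were tested, namely *Celf5*, *Srrm4* and *Stmn2* (higher), *Tubb3* (lower) and *Vgf* (not past the threshold). The other 8 stayed near 0 in both genotypes. Among genes outside the 42 with 12 letters within 1 kb, 825 of 1171 were tested. In KO 40.6% of these were higher and 29.9% lower, beside the same 34.3% and 32.5% of all tested genes. Their median log2 fold change was 0.09 against 0.02 for all tested genes. Over the 9 combinations, the share higher ran between 37.2% and 50% and the share lower between 12.5% and 31.4%, with 11 to 32 tested genes in the 3 settings that require all 14 letters. These shares were not tested.

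*Rest* was well expressed and its libraries overlapped between genotypes. It had 7569 and 6762 counts in KO and 7729 and 6705 in WT, or 162 ± 3.40 CPM in KO and 168 ± 6.29 CPM in WT (SD, n = 2 each; CPM is counts scaled to library depth by TMM). Its log2 fold change was -0.06 (standard error 0.06), close enough to 0 that it turned to 0.092 with library totals and to 0.0026 with the upper quartile. Per kb of exon *Rest* was the most abundant of the 39 in either genotype, at 22.3 CPM per kb in KO and 23.2 in WT. *Rcor1*, the corepressor that joins REST to KDM1A, had 3710 and 3300 counts in KO and 2881 and 2734 in WT. The KO libraries lay above both WT libraries, by a log2 fold change of 0.27 (standard error 0.06).

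Genes that work with or against REST outside the 42 were called both ways, as were 34.3% (higher) and 32.5% (lower) of all tested genes. Of 25 listed corepressors and regulators, all were tested, and 12 were higher and 9 lower in KO, with a median log2 fold change of 0.15. With library totals these counts were 14 and 3, and 6 were lower with the upper quartile or without either KO replicate. *Prickle1*, which takes part in carrying REST out of the nucleus, had 5038 and 4466 counts in KO and 975 and 851 in WT, and rose by a log2 fold change of 2.33 (standard error 0.07). *Btrc*, the ubiquitin ligase subunit that marks REST for degradation, rose by 1.29 on the log2 scale (standard error 0.08). *Ctdsp2*, a phosphatase that REST recruits to neuronal genes, had the highest level of the list averaged over both genotypes, though not in WT alone, and rose by 0.86 (standard error 0.06). The demethylase gene *Kdm1a* went the other way, with 2707 and 2164 counts in KO and 5771 and 4882 in WT, a log2 fold change of -1.18 (standard error 0.07). *Sin3b*, a scaffold for histone deacetylases, stood at -0.64 on the log2 scale (standard error 0.07).

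Across the 22 tested genes of the 42, 13 were higher and 5 lower in KO at an adjusted p of 0.05, beside 34.3% and 32.5% of all genes. With the stricter limits 8 were higher and 4 lower, beside 5.79% and 3.15%. The genes were chosen with these values known, and nothing is read from the shares. The remaining 4 tested genes, *Rest*, *Stx1a*, *Syn1* and *Vgf*, did not pass. When at least 10 counts were required in every library, 7 were higher. That filter removes any gene under 10 counts in a library, whether silent in 1 genotype or, like *Celf5*, only low there.

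**Figure D2:**
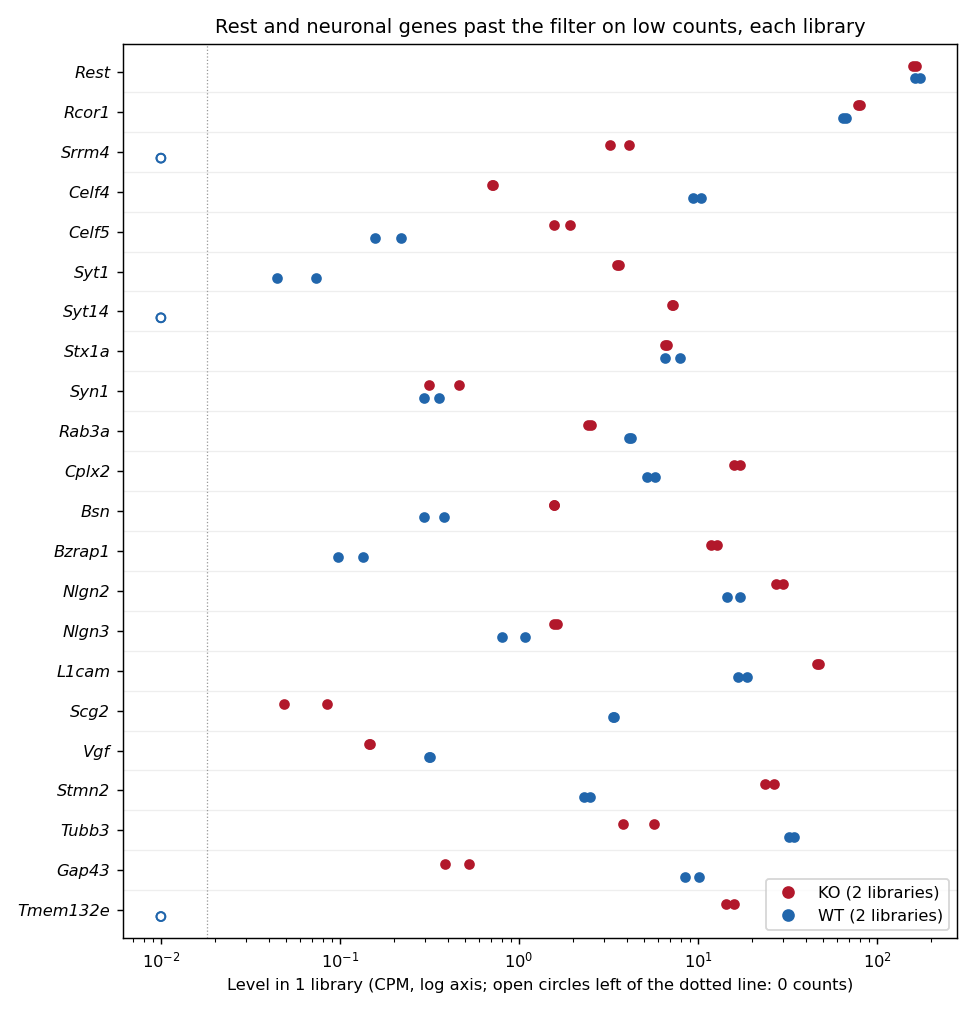
Level of each of the 22 tested genes in each library (CPM, log axis), KO in red above WT in blue, with open circles for libraries at 0 counts. *Srrm4*, *Syt14* and *Tmem132e* had 0 counts in both WT libraries, while the 4 libraries of *Rest* nearly coincide.

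The neural splicing regulators went in opposite directions. *Srrm4*, which activates microexons in neurons, had 154 and 169 counts in KO and 0 in both WT libraries. Against a floor of 3 counts over the WT group it was at least 104-fold higher in KO, a bound that covers counting error only. *Celf5*, an RNA-binding protein of the CELF family, had 92 and 65 counts in KO and 7 and 9 in WT, a log2 fold change of 3.22 (standard error 0.34). *Celf4*, of the same family, was the reverse, with 34 and 29 counts in KO against 465 and 386 in WT and a log2 fold change of -3.80 (standard error 0.18). The Hu protein genes *Elavl2*, *Elavl3* and *Elavl4*, which mark neurons, had 0 to 9 counts in any library and were not tested. *Srrm4* and *Celf5* share 68 and 543 exon bases with genes on the opposite strand, and the sources used here do not state whether reads were counted by strand.

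Among 21 listed splicing regulators outside the 42, 16 were tested, with a median log2 fold change of -0.18. In KO 4 were higher and 8 lower, beside 34.3% and 32.5% of all tested genes. *Rbfox1*, which regulates neuronal and muscle exons, had 480 and 363 counts in KO and 1 and 2 in WT. The ratio KO over WT was 272, with an exact 95% interval of 92.6 to 1319 from counting error only. *Mbnl3*, of the muscleblind family, rose by 0.80 on the log2 scale (standard error 0.08), and *Mbnl1*, the most abundant of the list, by 0.22 (standard error 0.06). *Khdrbs3*, whose product acts on neurexin splicing in neurons, stood at -1.23 on the log2 scale (standard error 0.10). *Srrm1*, a general splicing coactivator, stood at -0.92 (standard error 0.08).

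Synaptic vesicle and exocytosis genes held some of the largest differences. *Syt14*, a synaptotagmin, had 344 and 294 counts in KO and 0 in both WT libraries, at least 205-fold higher against the floor of 3 counts over the WT group. *Syt1*, the calcium sensor for fast transmitter release, had 168 and 149 counts in KO and 2 and 3 in WT, a log2 fold change of 5.87 (standard error 0.35). *Bzrap1*, whose product binds active zone proteins, had 558 and 523 counts in KO and 6 and 4 in WT, a log2 fold change of 6.68 (standard error 0.24). In all 3 genes the WT libraries were at or near 0 and the groups were far apart.

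*Cplx2*, a complexin that clamps and promotes vesicle fusion, was present in both genotypes, with 813 and 657 counts in KO and 257 and 212 in WT, a log2 fold change of 1.60 (standard error 0.12). *Bsn*, the active zone scaffold bassoon, had 75 and 65 counts in KO and 17 and 12 in WT, a log2 fold change of 2.21 (standard error 0.30). *Bsn* shares 1813 exon bases with a gene on the opposite strand. *Rab3a*, the GTPase of synaptic vesicles, was lower, with 116 and 104 counts in KO and 188 and 168 in WT, a log2 fold change of -0.74 (standard error 0.17). *Stx1a*, a SNARE protein of the plasma membrane, overlapped between genotypes, with 311 and 275 counts in KO and 354 and 268 in WT and a log2 fold change of -0.13 (standard error 0.14). The same held for *Syn1*, a synapsin that tethers vesicles, with 15 and 19 counts in KO and 16 and 12 in WT and a log2 fold change of 0.24 (standard error 0.42). Both signs turned under some alternatives. *Snap25*, *Syp*, *Syn2*, *Rims1* and *Syt4* had 0 to 13 counts in any library, so the partners that form the release machinery with *Syt1* in neurons were, *Stx1a* apart, near 0 in both genotypes.

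The vesicle genes outside the 42 were also called both ways. Of 25 listed vesicle and active zone genes, 17 were tested, with a median log2 fold change of 0.69. In KO 9 were higher and 3 lower, beside 34.3% and 32.5% of all tested genes. *Snap91*, a clathrin assembly protein of the synapse, had 607 and 498 counts in KO and 20 and 22 in WT, a log2 fold change of 4.66 (standard error 0.18). *Rims2*, an active zone scaffold, was lower in KO with a log2 fold change of -1.05 (standard error 0.08), as was the widely expressed SNARE gene *Snap23* at -0.84 (standard error 0.07). *Snap47*, with the highest level of the list averaged over both genotypes though not in WT alone, stood at 0.11 on the log2 scale (standard error 0.06), which did not pass.

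Of 14 other listed synaptotagmins, 7 were tested, with a median log2 fold change of 1.72. In KO 4 were higher and 1 lower, beside 34.3% and 32.5% of all tested genes. *Syt12* had 2389 and 2135 counts in KO and 597 and 389 in WT, a log2 fold change of 2.16 (standard error 0.12). *Syt8* stood at 2.01 (standard error 0.17). *Syt11*, which does not bind calcium, had 1012 and 912 counts in KO and 2094 and 2297 in WT, a log2 fold change of -1.24 (standard error 0.09).

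The 3 tested adhesion genes of the synapse and axon were higher in KO, beside 34.3% of all tested genes, and none passed the stricter limits. *L1cam*, a cell adhesion molecule of growing axons, had 2185 and 1946 counts in KO and 748 and 773 in WT, a log2 fold change of 1.39 (standard error 0.08). *Nlgn2*, the neuroligin of inhibitory synapses, had 1288 and 1231 counts in KO and 651 and 700 in WT, a log2 fold change of 0.85 (standard error 0.10). *Nlgn3* had 75 and 67 counts in KO and 36 and 44 in WT, a log2 fold change of 0.77 (standard error 0.26). Its call was lost in DESeq2 and without either KO replicate or WT replicate 1, where the log2 fold change was 0.75, 0.80, 0.75 and 0.57. The neurexin genes *Nrxn2* and *Nrxn3*, presynaptic partners of neuroligins, had 0 to 11 counts in any library.

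*L1cam* and *Nlgn3* lie on the X chromosome, where 49.0% of 524 tested genes were higher and 18.1% lower in KO, with a median log2 fold change of 0.24. *Xist*, the RNA of the inactive X, which was looked up after the values were seen, had 66834 and 64527 counts in KO and 25867 and 28761 in WT. The part of either in the results for these genes was not tested. *Nlgn3* shares 749 exon bases and *L1cam* 100 with neighbouring genes. Outside the 42, 6 of 16 listed synaptic adhesion genes were tested, with a median log2 fold change of 1.15. In KO 4 were higher and 1 lower, beside 34.3% and 32.5% of all tested genes. *Chl1*, the close homologue of L1, had 716 and 537 counts in KO and 3 and 0 in WT, a ratio of 404 with an exact 95% interval of 138 to 1960. *Lrrtm3*, a postsynaptic adhesion protein, stood at 3.87 on the log2 scale (standard error 0.16). *Clstn1*, a calsyntenin and the most abundant of the list, was lower at -0.33 (standard error 0.06).

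**Figure D3:**
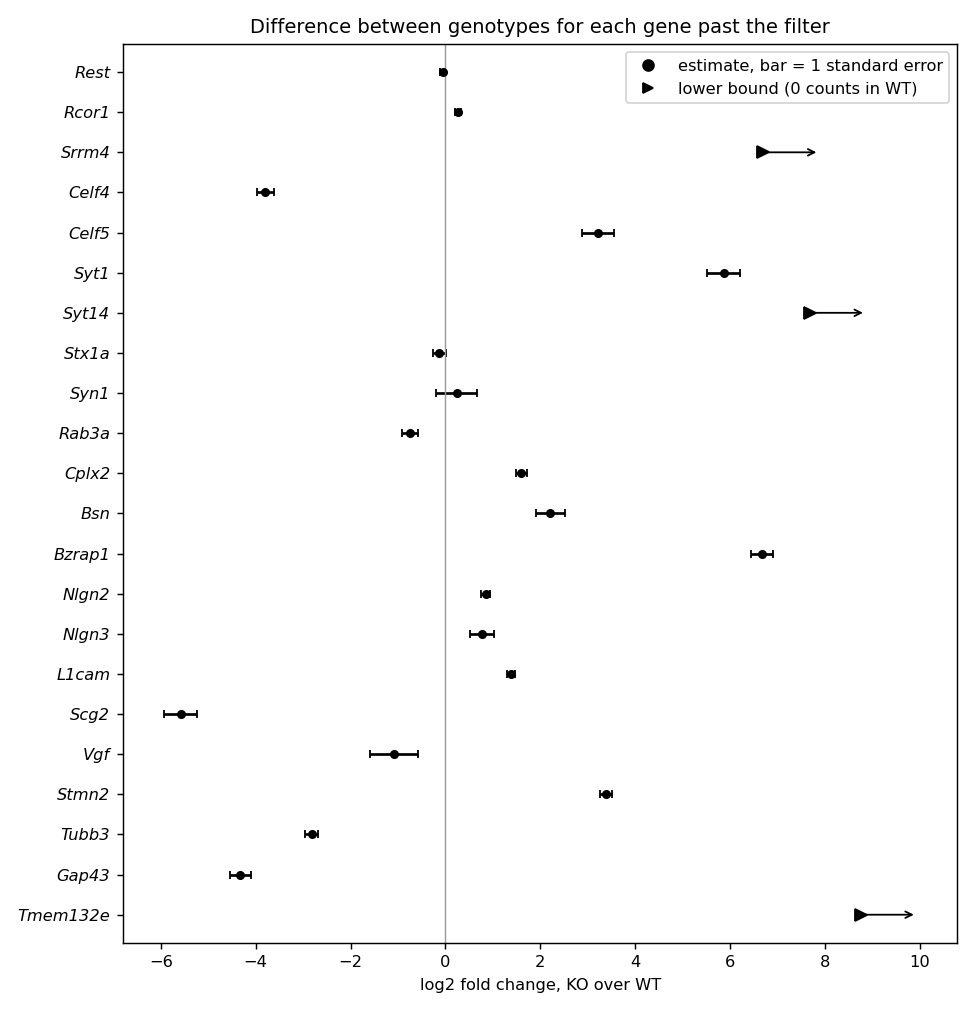
Log2 fold change of KO over WT for the 22 tested genes (points, with bars of 1 standard error), with triangles and arrows for lower bounds where WT had 0 counts. The values run between -5.58 for *Scg2* and the bounds of *Srrm4*, *Syt14* and *Tmem132e* on the right.

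Of the 5 secretory granule genes, 2 were tested, of which 1 was lower in KO, beside 32.5% of all tested genes, and 1 did not pass. *Scg2*, a granin stored in dense core vesicles, had 4 and 2 counts in KO and 152 and 137 in WT, a log2 fold change of -5.58 (standard error 0.35). *Vgf*, a neuropeptide precursor, had 7 and 6 counts in KO and 14 and 13 in WT. Its log2 fold change of -1.09 (standard error 0.50) did not pass the threshold. *Chga*, *Chgb* and *Scg3* had 0 to 2 counts in any library. Outside the 42, 5 of 10 listed granule genes were tested, with a median log2 fold change of -0.25. In KO 1 was higher and 3 lower, beside 34.3% and 32.5% of all tested genes. With library totals 1 was higher and 1 lower, and the higher call was lost in DESeq2 and without KO replicate 1. *Ptprn*, a granule membrane protein, had 25 and 12 counts in KO and 262 and 186 in WT, a log2 fold change of -3.64 (standard error 0.27). The peptide-processing enzyme genes *Cpe* and *Pam*, abundant in both genotypes, had log2 fold changes of -0.17 (standard error 0.06) and -0.25 (standard error 0.06), and the calls of both were lost with library totals.

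In the neuronal cytoskeleton and growth cone, 1 tested gene was higher and 2 lower, beside 34.3% and 32.5% of all tested genes. *Stmn2*, a stathmin that regulates microtubules in growing axons and a classic REST target, had 1267 and 976 counts in KO and 112 and 95 in WT, a log2 fold change of 3.38 (standard error 0.12). Per kb of exon it followed only *Rest* and *Rcor1* among the 39 in KO, at 13.2 CPM per kb, against 1.27 in WT. *Tubb3*, the neuronal beta-tubulin, had 181 and 234 counts in KO and 1447 and 1402 in WT, a log2 fold change of -2.82 (standard error 0.14). *Gap43*, a growth cone protein, had 25 and 16 counts in KO and 455 and 345 in WT, a log2 fold change of -4.33 (standard error 0.22). In WT, *Tubb3* and *Gap43* stood at 17.8 and 6.10 CPM per kb, among the most abundant of the 39. *Stmn3*, *Dcx*, *Nefl* and *Nefm*, which mark neurons and their axons, had 0 to 6 counts in any library.

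The listed cytoskeletal genes outside the 42 included 8 tested, with a median log2 fold change of -0.35. In KO 2 were higher and 5 lower, beside 34.3% and 32.5% of all tested genes. *Dpysl3*, a growth cone phosphoprotein, had 3221 and 2737 counts in KO and 13070 and 10085 in WT, a log2 fold change of -2.00 (standard error 0.08). *Tubb2b* stood at -0.94 on the log2 scale (standard error 0.07). *Dclk1*, a kinase related to doublecortin, had 31497 and 28097 counts in KO and 11790 and 14090 in WT, a log2 fold change of 1.15 (standard error 0.10).

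*Tmem132e*, a membrane protein needed for hearing in humans, had 685 and 657 counts in KO and 0 in both WT libraries, at least 432-fold higher against the floor of 3 counts over the WT group. Its level in KO, 3.34 CPM per kb, was close to that of *Syt14* (3.74) and *Cplx2* (3.35). Of its family only *Tmem132a* was tested among the 2 others analysed, with 6632 and 6508 counts in KO and 8383 and 7162 in WT, a log2 fold change of -0.28 (standard error 0.07). That call was lost with library totals and without KO replicate 1.

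The 17 genes below the filter had 98 counts in all in KO and 53 in WT. None had more than 13 counts in any library, and 11 had at most 3 in every library. Differences among them were not detectable at this depth. They cover each role other than REST and its corepressor and *Tmem132e*, with 3 splicing and RNA-binding, 5 vesicle, 2 adhesion, 3 granule and 4 cytoskeletal genes.

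Of other listed REST target genes, 12 of 26 were tested, with a median log2 fold change of 0.28. In KO 5 were higher and 5 lower, beside 34.3% and 32.5% of all tested genes. The number higher was 2 in DESeq2, with at least 10 counts in every library or without KO replicate 1, and 3 without KO replicate 2 or WT replicate 2, while 5 to 6 were lower in these settings. *Bdnf*, a neurotrophin, had 1942 and 1718 counts in KO and 5650 and 4808 in WT, a log2 fold change of -1.56 (standard error 0.07). *Npas4*, an activity-induced transcription factor, had 259 and 224 counts in KO and 66 and 55 in WT, a log2 fold change of 1.95 (standard error 0.18). *Kcnh2*, a potassium channel, was lower with a log2 fold change of -2.17 (standard error 0.16). Of 15 listed transmitter and excitability genes, 5 were tested. In KO 2 were higher, beside 34.3% of all tested genes, and 3 did not pass the threshold. Among the higher was the calcium channel gene *Cacna1b*, with a log2 fold change of 0.98 (standard error 0.22). The channel gene *Cacna1a* had the highest level of the 5 averaged over both genotypes, though not in KO alone. It stood at -0.43 on the log2 scale (standard error 0.19), which passed only under 4 of the alternatives.

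**Figure D4:**
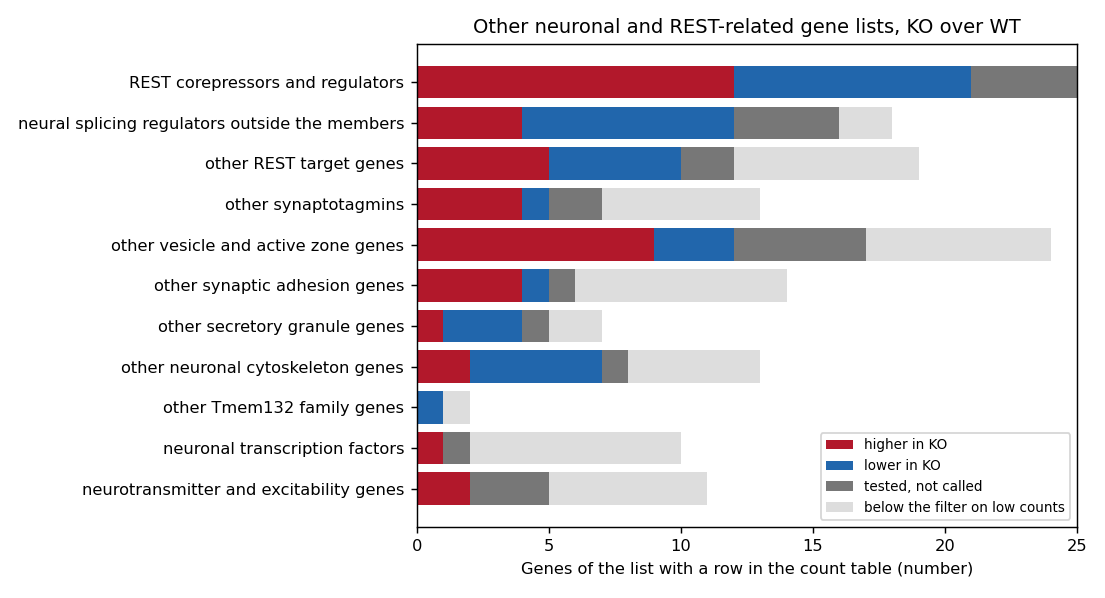
Number of genes with a row in the count table (horizontal axis) for 11 lists of related genes outside the 42, split into higher in KO, lower in KO, tested without passing, and below the filter on low counts. More genes were higher than lower in the corepressor, synaptotagmin, vesicle, adhesion, neuronal transcription factor and transmitter lists. The splicing, granule, cytoskeletal and *Tmem132* family lists were the reverse, and the list of other REST targets was even. Of all tested genes, 34.3% were higher and 32.5% lower.

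Over the 11 lists together, 103 of 154 genes in the table were tested, with a median log2 fold change of 0.14 against 0.02 for all genes. In KO 43 were higher and 36 lower, beside 34.3% and 32.5% of all tested genes. These shares were not tested.

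Markers of neurons and of other cells were compared in the same libraries. Of 10 neuronal markers, 6 were tested, and 1 was higher and 2 lower in KO, beside 34.3% and 32.5% of all tested genes. Their summed level was 119 to 121 CPM in KO and 180 to 200 CPM in WT, most of it from the adhesion molecule *Ncam1*, with 4435 and 3792 counts in KO and 7247 and 6057 in WT. The glycolytic enzyme gene *Eno2* was higher by 1.12 on the log2 scale (standard error 0.12), while *Uchl1*, a ubiquitin hydrolase, was at -1.13 (standard error 0.11). Neural progenitor markers summed to 135 to 141 CPM in KO and 344 to 429 CPM in WT, with the filament gene *Nes* at 6497 and 5378 counts in KO and 19101 and 13982 in WT, and with *Sox2* at or under 3 counts over all libraries. Sympathoadrenal markers summed to 0.15 CPM or less in every library. Schwann cell and neural crest markers reached 5.92 to 6.37 CPM in KO and 3.93 to 4.47 CPM in WT, with *S100b* at or under 3 counts over all libraries. Epithelial markers, at 2.94 to 3.30 CPM in KO and 0.85 to 1.32 CPM in WT, included the cadherin *Cdh1*, with 142 and 107 counts in KO and 10 and 9 in WT. The keratin genes *Krt8*, *Krt18* and *Krt14*, read after their values were seen, had 0 to 2 counts in KO libraries and 2 to 18 in WT libraries. Macrophage markers were at 5.81 to 5.99 CPM in KO and 3.25 to 4.15 CPM in WT, with the receptor gene *Csf1r* at 196 and 177 counts in KO and 61 and 47 in WT. The leukocyte marker *Ptprc*, also read after its values were seen, went the other way, with 0 and 2 counts in KO and 40 and 21 in WT. The part of these cells in the results for the 42 genes was not tested.

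Neighbouring genes, which the choice did not use, were read beside the 18 called genes. The nearest tested gene on each side of the 13 higher genes was itself higher in 14 of 26 cases and lower in 2, beside 34.3% and 32.5% of all genes. Without the neighbours of the X-linked *Nlgn3* and *L1cam*, which include genes that overlap them, 10 of 22 were higher and 2 lower. Beside the 5 lower genes, 3 of 10 neighbours were higher and 3 lower. *Nav3*, a neuron navigator gene 672 kb from *Syt1*, stood at 4.34 on the log2 scale (standard error 0.08), and *Hey1*, a Notch target 102 kb from *Stmn2*, at 2.02 (standard error 0.15). *Diexf*, 68.7 kb from *Syt14*, stood at -0.15 (standard error 0.08), which did not pass, and *Suds3*, 500 kb from *Srrm4*, at 0.15 (standard error 0.06). The largest difference was in *Lpo*, 20.5 kb from *Bzrap1*, with 76 counts in KO over both libraries and 0 in WT. It passed the filter only through KO, so it had to differ. *BC002163*, 615 kb from the lower *Gap43*, had 362 counts in KO over both libraries and 7 in WT. All these neighbours were named after their values were seen.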

How the data were processed

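Per the labels and methods, the authors prepared strand-specific libraries of ribosome-depleted total RNA, aligned the reads to mm9 with TopHat2 and Bowtie, and counted them per Ensembl gene with HTSeq 0.5.4p3. The deposited table holds raw read counts, which were used here, and the authors' normalized counts and comparison (log2 ratios, p-values), which were not. Genes passing filterByExpr by genotype (15538) were scaled by TMM and tested with edgeR 4.0.16 (R 4.3.3), quasi-likelihood test, genotype as the only term, Benjamini-Hochberg adjustment over all of them. A gene was called at an adjusted p of 0.05. The standard error is the absolute log2 fold change over the square root of F. The test was also run on data simulated from the means, library sizes and dispersions of these libraries. A symbol with 2 rows was represented by the row with more counts. Intervals are exact at 95%.

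Members and lists were chosen with earlier results of these data known. Every gene of the 42 is accounted for. Of each other list, the most abundant gene and up to 2 per direction with the largest absolute change at a mean of at least 1 CPM were eligible to be named. Some of these are not reported here. Genes were placed with the mm9 annotation (23393 of 23537 identifiers). The alternatives covered scaling, low-count filter, threshold, DESeq2 1.42.0, limma-voom 3.58.1, a replicate block, each library left out, and 11 letters for the promoters. The element windows in mm9 were added after the data were seen. No protein sequences were used.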

Additional observations from a re-analysis of the deposited data

How the results depend on the processing

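Under the stricter limits 900 genes were higher and 489 lower in KO in place of 5335 and 5045, and 8 of the 42 genes were higher in place of 13. Library totals alone moved the median over all genes to 0.17 on the log2 scale in place of 0.02 and gave 6628 higher and 3964 lower, so 62.6% of calls were higher in place of 51.4%. With at least 10 counts in every library 7 of the 42 were higher, and 5 markers of cells other than fibroblasts were lower in place of 8. Fibroblast markers higher in KO numbered 2 with library totals, 1 with the upper quartile and 0 to 1 when each library was left out, in place of 0. *Rest* changed sign with library totals (0.092) and the upper quartile (0.0026), *Stx1a* with library totals (0.019) and without WT replicate 1 (range -0.29 to 0.0099 with each library left out), and *Syn1* without KO replicate 2 (range -0.047 to 0.50), none of them past the threshold in either direction. Of 256 values of the 22 tested genes under alternatives, 247 kept direction and call, 5 changed sign and 4, all of *Nlgn3*, lost the call. The cause was not tested. With at least 11 letters in place of 12, 4 of 30 promoters held the element in place of 1. In mm9, in place of 13 genes with 12 letters within 1 kb, 21 held 12 letters within 5 kb, and 4, 5 and 7 held all 14 within 1, 2 and 5 kb.

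The deviations of same-numbered libraries correlated at -0.03, so no deviation shared by replicate number was seen. This cannot show whether same-numbered libraries were prepared together, which the labels do not state. With the replicate block 5299 genes were higher and 4999 lower, and of the 42 genes 13 were higher and 5 lower. The depth of 39108275 counts or more left 17 of the 42 genes at 13 counts or fewer, where no difference could be read, and with 2 libraries a genotype an exact test of a single value cannot go below a two-sided p of 0.333.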
